A study of Mus musculus with 48 samples.

Results

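Egf, Kl, Pvalb and Umod are genes of the thick ascending limb of the loop of Henle and of the distal convoluted tubule, and their kidney RNA was followed in mice given vancomycin. These 4 genes were taken by symbol from the 5748 genes that could be named and tested, out of 7859 genes named in a table of 45101 probe sets. All 4 passed the filter on low values, which asked for a log2 intensity above the table's median of 3.467 in at least 6 arrays. Female BALB/c mice received 7 daily injections into a vein (iv) or into the peritoneal cavity (ip), and kidneys were taken on day 8. The 8 groups of 6 mice were iv vancomycin at 50, 200 and 400 mg/kg per day and iv saline, and ip vancomycin at 50, 200 and 400 mg/kg per day and ip saline. All mice shared strain, sex and injection schedule, and their age is not given in the sources used here. A piece of kidney from each mouse went to 1 Affymetrix array, so a sample mixes cortex and medulla in a proportion that the labels do not state.

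The thick ascending limb reabsorbs salt without water, and the distal convoluted tubule behind it adjusts sodium, calcium and magnesium. Umod encodes uromodulin, also called Tamm-Horsfall protein, which the thick ascending limb releases in large amounts into the urine. Egf encodes the membrane-bound precursor of epidermal growth factor, which the loop and the distal convoluted tubule release and which acts on magnesium uptake and epithelial growth. Kl encodes klotho, the distal tubule's co-receptor for the phosphate-regulating hormone FGF23. Pvalb encodes parvalbumin, a calcium-binding EF-hand protein that in mouse kidney marks the early distal convoluted tubule.

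The 250 bases before the annotated start of each gene are shown because the members differed in how far their RNA fell. Sequence and position are from RefSeq on GRCm38.p6. They are Egf at chr3:129755323-129755572 (minus strand), Kl at chr5:150952357-150952606 (plus strand), Pvalb at chr15:78206401-78206650 (minus strand) and Umod at chr7:119479263-119479512 (minus strand), each printed 5′ to 3′ on the gene's own strand. Egf and Pvalb each have 2 annotated windows, of which the most upstream is shown. Capitals mark matches, searched on both strands, to 5 short motifs. The motif TATAAA is the TATA box and GTTAAT the core of the HNF1 site. The motif AAGGTCA is bound by oestrogen-related receptors, GGGCGG is the GC box, and TGACG is the core of the cyclic AMP response element; their letters do not overlap in these windows.
Egf: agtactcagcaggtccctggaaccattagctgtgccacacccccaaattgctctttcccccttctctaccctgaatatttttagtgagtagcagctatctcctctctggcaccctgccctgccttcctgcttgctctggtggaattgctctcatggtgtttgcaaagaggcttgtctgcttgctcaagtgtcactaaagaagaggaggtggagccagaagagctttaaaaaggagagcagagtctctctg
Kl: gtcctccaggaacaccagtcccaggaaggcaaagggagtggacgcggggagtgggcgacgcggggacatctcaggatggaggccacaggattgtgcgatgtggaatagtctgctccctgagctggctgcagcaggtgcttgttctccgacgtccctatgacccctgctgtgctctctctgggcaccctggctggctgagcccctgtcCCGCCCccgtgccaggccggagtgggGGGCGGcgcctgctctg
Pvalb: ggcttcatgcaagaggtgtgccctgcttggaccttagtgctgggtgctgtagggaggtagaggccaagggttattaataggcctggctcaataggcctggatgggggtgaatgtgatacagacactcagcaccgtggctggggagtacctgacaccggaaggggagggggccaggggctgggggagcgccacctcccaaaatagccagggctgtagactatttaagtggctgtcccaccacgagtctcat
Umod: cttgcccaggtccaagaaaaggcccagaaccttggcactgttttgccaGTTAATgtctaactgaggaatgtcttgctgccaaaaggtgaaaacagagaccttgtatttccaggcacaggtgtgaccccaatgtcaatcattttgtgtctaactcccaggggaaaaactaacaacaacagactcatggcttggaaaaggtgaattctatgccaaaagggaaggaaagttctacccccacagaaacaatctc
The Kl window held the GC box once on each strand, a motif present in 32.7% of 32851 promoter windows of this length. The Umod window held GTTAAT, present in 6.4% of those windows. The letters of the 5 motifs were not found in the Egf and Pvalb windows. TATAAA occurred in 12.4%, AAGGTCA in 4.1% and TGACG in 17.8% of all windows. G and C made up 66.8% of the Kl window, 58.4% of the Pvalb window, 50.4% of the Egf window and 45.2% of the Umod window. These matches are descriptions of the letters and were not tied to the array values.

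The identity of each member rests on a re-established order of names, because the identifiers and values of the deposited table are out of step. Only 3 stretches of 11000 rows (24.4% of the table) were named, and the other rows were not used. Rows up to 250 places from each member were paired with other rows of the same gene that had a high mean level. The leading patterns shared across highly expressed rows were first removed from the within-group residuals. These residuals were then correlated for pairs in which both rows had a high mean level. This was done at the chosen offset and at 10 neighbouring shifts. The offsets were inferred from these same values, so the comparison describes the neighbourhood and is not an independent check. No pair at the chosen offset held a member's own row, because each member had 1 named row. The mean correlation at the chosen offset was 0.333 around Egf (17 pairs), 0.439 around Kl (24 pairs), 0.512 around Pvalb (14 pairs) and 0.339 around Umod (29 pairs). The neighbouring shifts reached at most 0.09 around Egf, 0.17 around Kl, 0.164 around Pvalb and 0.053 around Umod. Levels were correlated over more pairs, 23 around Egf, 33 around Kl, 21 around Pvalb and 66 around Umod. There only the partner row needed a high mean level. The correlation of levels was a weaker guide. At the chosen offset it was 0.172 around Egf, 0.291 around Kl, 0.369 around Pvalb and 0.373 around Umod, and another shift gave a higher value around Egf (0.214), Kl (0.351) and Pvalb (0.381) but not around Umod (0.177). Egf was read from probe set 1418093_a_at, Kl from 1423400_at, Pvalb from 1417653_at and Umod from 1426252_a_at. Kl and Umod have 2 annotated probe sets each, of which 1 lay in a named stretch.

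The kidney label was checked against segment markers in saline mice. Slc34a1, the proximal tubule phosphate transporter, averaged 13.39 ± 0.14 log2 intensity in ip saline kidneys and 13.23 ± 0.27 in iv saline kidneys, and Aqp2, the collecting duct water channel, averaged 10.92 ± 0.46 and 11.10 ± 0.57 in the same order (SD, n = 6 each). Array medians lay between 3.472 and 3.683 in ip arrays and between 3.34 and 3.546 in iv arrays, and the 90th percentiles between 9.072 and 9.229 in ip arrays and between 8.278 and 8.753 in iv arrays. Route and array set cannot be told apart. Arrays of different iv groups without the 400 mg/kg group shared residuals by place in the mouse order, with a mean correlation of 0.158 within the first or last 3 mice and -0.148 across them, against 0.06 and -0.06 in ip arrays. Residuals were taken from group means, so the value across mirrors the value within by construction and is no second observation. Given the values within, the mice may not be fully independent measurements, and the p-values measure the spread between these arrays.

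At 400 mg/kg, RNA of Egf, Kl and Pvalb fell by both routes, and every treated mouse lay below all saline mice of its route. How many of all genes separated in this way, here or in the comparisons below, was not counted. Umod fell to 81.9% of saline by the ip route and to 82.4% by the iv route. The question was how far each of these loop and distal genes moved at each dose and route. With iv 400 mg/kg vancomycin all 4 members passed the test and were lower than with iv saline, where 49.7% of all genes tested passed in either direction and 19% passed as lower. With ip 400 mg/kg vancomycin all 4 again passed as lower than with ip saline, where 61.3% of genes passed and 25.1% passed as lower. In bulk tissue, fewer cells of a type and less RNA per cell cannot be told apart.

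**Figure D1:**
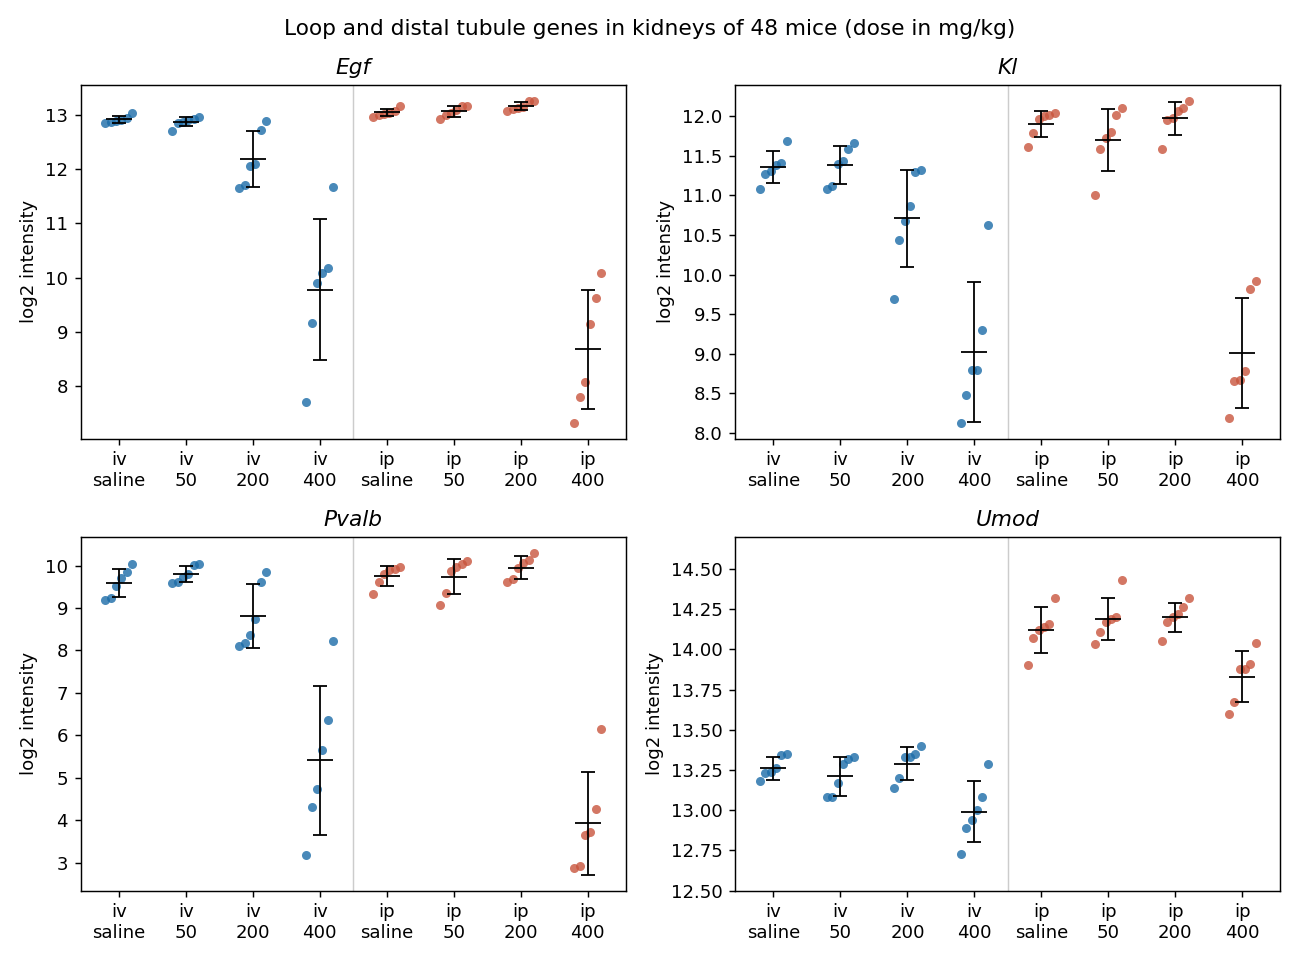
Log2 intensity of Egf, Kl, Pvalb and Umod in each of 48 mice (points), by group, with the group mean and SD in black; doses run from saline to 400 mg/kg within iv (blue) and ip (red), and each gene has its own axis. At 400 mg/kg Egf, Kl and Pvalb lie below every saline mouse of the same route, whereas Umod overlaps its saline group.

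Egf had lowest, median and highest log2 intensities of 12.86, 12.90 and 13.04 with iv saline, 12.71, 12.90 and 12.97 with iv 50 mg/kg, 11.65, 12.07 and 12.89 with iv 200 mg/kg, and 7.70, 9.99 and 11.67 with iv 400 mg/kg. By the ip route the values were 12.97, 13.03 and 13.16 with saline, 12.92, 13.06 and 13.17 at 50 mg/kg, 13.07, 13.15 and 13.26 at 200 mg/kg, and 7.32, 8.61 and 10.09 at 400 mg/kg. The SD was at most 0.10 in the saline, 50 mg/kg and ip 200 mg/kg groups and was wider at iv 200 mg/kg (0.52) and at 400 mg/kg by both routes, where no mouse reached its saline group. Egf averaged 9.78 ± 1.30 with iv 400 mg/kg and 12.92 ± 0.06 with iv saline (SD, n = 6 each). The log2 difference was -3.14 ± 0.35 (SE), an 8.81-fold lower intensity, with an adjusted p of 3.4e-10 by limma with Benjamini-Hochberg adjustment. With ip 400 mg/kg it averaged 8.68 ± 1.10, against 13.05 ± 0.07 with ip saline (SD, n = 6 each). That difference was -4.37 ± 0.35, or 20.7-fold lower (limma adjusted p = 1.2e-14). These SEs pool the spread of all 8 groups, which was unequal. With only the compared groups fitted, the SE was 0.46 (iv) and 0.39 (ip), with limma adjusted p of 9.5e-05 and 4.7e-07. Egf held the 15th place from the largest fall among 5748 genes at iv 400 mg/kg and the 11th place at ip 400 mg/kg.

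Pvalb showed the largest falls of the 4 genes. Its lowest, median and highest log2 intensities were 9.19, 9.61 and 10.03 with iv saline, 9.59, 9.76 and 10.03 with iv 50 mg/kg, 8.11, 8.55 and 9.85 with iv 200 mg/kg, and 3.19, 5.19 and 8.23 with iv 400 mg/kg. By the ip route they were 9.34, 9.85 and 9.96 with saline, 9.07, 9.93 and 10.10 at 50 mg/kg, 9.60, 10.00 and 10.30 at 200 mg/kg, and 2.87, 3.69 and 6.15 at 400 mg/kg. At 400 mg/kg the groups did not overlap with saline, and 2 ip mice and 1 iv mouse lay under the median of the whole table, where levels near background are poorly separated. The log2 difference was -4.17 ± 0.46 (SE) for iv 400 mg/kg against iv saline (18.0-fold lower, limma adjusted p = 2.5e-10). For ip 400 mg/kg against ip saline it was -5.83 ± 0.46 (56.8-fold lower, limma adjusted p = 7.7e-15). With only the compared groups fitted, the SE was 0.62 (iv) and 0.44 (ip), with limma adjusted p of 0.00012 and 9e-08. Pvalb stood in 2nd place from the largest fall at iv 400 mg/kg and in 3rd place at ip 400 mg/kg. Pvalb is also a gene of fast skeletal muscle, whose 6 named markers all failed the filter, the highest single value in any array being 4.01 (Myh4).

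Kl had lowest, median and highest log2 intensities of 11.08, 11.35 and 11.68 with iv saline, 11.08, 11.41 and 11.66 with iv 50 mg/kg, 9.69, 10.77 and 11.32 with iv 200 mg/kg, and 8.13, 8.79 and 10.63 with iv 400 mg/kg. By the ip route they were 11.61, 11.98 and 12.04 with saline, 11.01, 11.76 and 12.10 at 50 mg/kg, 11.58, 12.01 and 12.19 at 200 mg/kg, and 8.19, 8.72 and 9.92 at 400 mg/kg. Every mouse given 400 mg/kg lay below all saline mice of its route. The log2 difference was -2.34 ± 0.27 (SE) for iv 400 mg/kg against iv saline (5.05-fold lower, limma adjusted p = 1.2e-09) and -2.89 ± 0.27 for ip 400 mg/kg against ip saline (7.43-fold lower, limma adjusted p = 1.5e-12). With only the compared groups fitted, the SE was 0.32 (iv) and 0.26 (ip), with limma adjusted p of 6e-05 and 4.6e-07. Kl took the 37th place from the largest fall at iv 400 mg/kg and the 44th at ip 400 mg/kg.

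Umod lay above 99.6% of table rows in mean log2 intensity and moved least. Its lowest, median and highest log2 intensities were 13.18, 13.25 and 13.35 with iv saline, 13.08, 13.23 and 13.33 with iv 50 mg/kg, 13.14, 13.33 and 13.40 with iv 200 mg/kg, and 12.73, 12.97 and 13.29 with iv 400 mg/kg. By the ip route they were 13.90, 14.13 and 14.32 with saline, 14.03, 14.18 and 14.43 at 50 mg/kg, 14.05, 14.21 and 14.32 at 200 mg/kg, and 13.60, 13.88 and 14.04 at 400 mg/kg. At 400 mg/kg 5 of 6 iv mice and 4 of 6 ip mice lay below all saline mice of their route, so the groups overlapped. The log2 difference was -0.28 ± 0.08 (SE) for iv 400 mg/kg against iv saline, a level of 82.4% of saline (limma adjusted p = 0.0031). For ip 400 mg/kg against ip saline it was -0.29 ± 0.08, or 81.9% of saline (limma adjusted p = 0.0017). With only the compared groups fitted, the limma adjusted p was 0.035 (iv) and 0.012 (ip). Umod held the 1327th place from the largest fall at iv 400 mg/kg and the 1545th at ip 400 mg/kg. How close the probe set was to the upper end of the array's range was not tested; the highest log2 intensity in the table was 15.96.

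**Figure D2:**
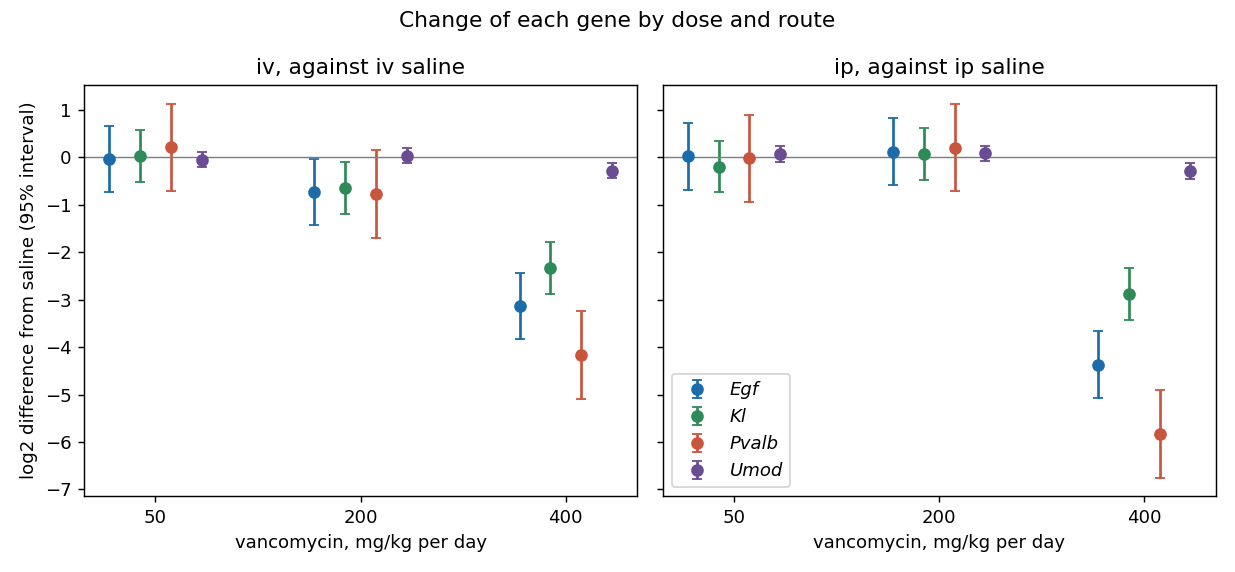
Log2 difference from saline of the same route, with 95% interval from limma, for Egf, Kl, Pvalb and Umod at 50, 200 and 400 mg/kg by iv (left) and ip (right). At ip 200 mg/kg all 4 intervals include 0, at iv 200 mg/kg the unadjusted intervals of Egf and Kl lie below 0, and at 400 mg/kg all 4 lie below 0 by both routes.

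Within arrays, the ratios of Egf, Kl and Pvalb to Umod were also compared, an addition made after the values were seen. The log2 ratio to Umod was lower with iv 400 mg/kg than with iv saline by -2.86 for Egf, -2.06 for Kl and -3.89 for Pvalb. With ip 400 mg/kg against ip saline the differences were -4.08 for Egf, -2.61 for Kl and -5.54 for Pvalb. In all 6 comparisons each of the 6 treated mice lay below all saline mice. Umod was taken as the denominator because it had moved least, so these ratios restate the falls given above on a scale within each array, as a description with no test.

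At 200 mg/kg no member passed the main test by either route. With iv 200 mg/kg against iv saline the log2 differences were -0.73 ± 0.35 for Egf (limma adjusted p = 0.21), -0.64 ± 0.27 for Kl (0.15), -0.77 ± 0.46 for Pvalb (0.33) and 0.03 ± 0.08 for Umod (0.88), so 0 of 4 passed where 7.36% of genes did. Fitting only these 2 groups also passed 0 of 4 (adjusted p = 0.074 for Egf, 0.16 for Kl and 0.19 for Pvalb), as did fitting only the iv arrays (0.34 for Egf, 0.28 for Kl and 0.48 for Pvalb). Exact two-sided permutation tests of these 6 against 6 mice, unadjusted, gave p = 0.00866 for Egf, 0.0238 for Kl, 0.0498 for Pvalb and 0.556 for Umod. These tests were not run over all genes. With array quality weights Egf (adjusted p = 0.0067), Kl (0.0072) and Pvalb (0.025) passed, where 1398 of 5748 genes passed. All 6 iv 200 mg/kg mice lay below the iv saline mean in Egf and in Kl, and 4 of 6 did so in Pvalb. With ip 200 mg/kg the differences from ip saline were 0.12 for Egf, 0.07 for Kl, 0.20 for Pvalb and 0.08 for Umod, and 0 of 4 passed where 0.087% of genes did.

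The difference between the routes at 200 mg/kg, ip effect minus iv effect, was 0.85 ± 0.49 for Egf (limma adjusted p = 0.51), 0.72 ± 0.39 for Kl (0.47), 0.97 ± 0.65 for Pvalb (0.58) and 0.06 ± 0.11 for Umod (0.89). None of the 4 passed, against 0.974% of all genes. Egf passed when array quality weights were used (0.95, adjusted p = 0.031) or when the fit held the 4 compared groups alone (adjusted p = 0.048). With the weights 714 genes passed, against 56 in the main fit.

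The iv 200 mg/kg mice differed among themselves. Mice 26 and 28 had Egf values of 12.73 and 12.89, against 11.65 to 12.09 in mice 25, 27, 29 and 30. Their Kl values were 11.32 and 11.29, against 9.69 to 10.86, and their Pvalb values 9.62 and 9.85, against 8.11 to 8.73. These mice therefore held the highest values of the group in all 3 genes, close to the saline mice. The summed intensity of 10 tubular injury markers was 9556 in mouse 26 and 4872 in mouse 28, against 27053 to 39165 in the other 4 mice and 3064 to 5878 with iv saline. Havcr1, the injury marker KIM-1, read 10.72 in mouse 26 and 9.95 in mouse 28, against 12.53 to 13.74 in the others. Umod read 13.20 in mouse 26 and 13.33 in mouse 28, within the range of 13.14 to 13.40 of the others. This grouping was seen in the values and carries no test.

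**Figure D3:**
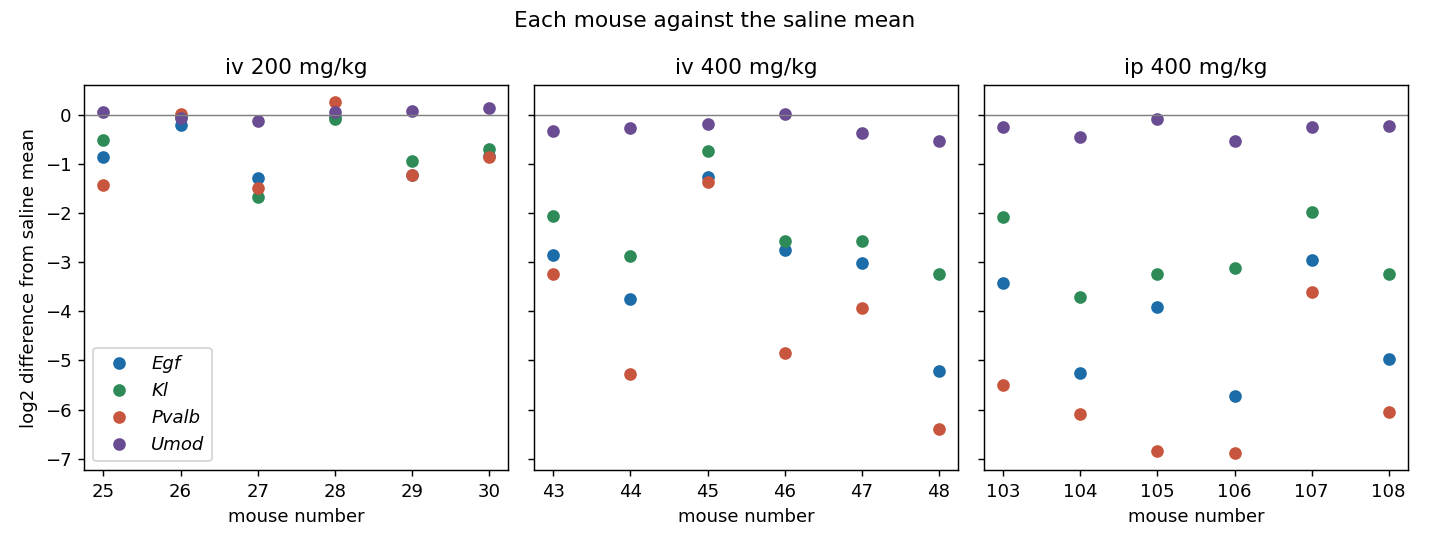
Log2 intensity of Egf, Kl, Pvalb and Umod in each mouse (numbered points) minus the mean of saline mice of the same route, at iv 200, iv 400 and ip 400 mg/kg. Mice 26 and 28 lie near 0 in all 4 genes at iv 200 mg/kg, mouse 45 has the smallest falls of Egf, Kl and Pvalb at iv 400 mg/kg, and mouse 107 has the smallest at ip 400 mg/kg.

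At iv 400 mg/kg the same mice marked the ends for 3 members. Mouse 45 was highest in Egf (11.67), Kl (10.63) and Pvalb (8.23), and mouse 48 was lowest in Egf (7.70), Kl (8.13), Pvalb (3.19) and Umod (12.73). Across the 6 mice Kl and Pvalb correlated at r = 0.97 (exact permutation p = 0.0028, adjusted over 12 relations 0.033) and rho = 0.94 (exact permutation p = 0.017, adjusted 0.1). Without the 2 mice farthest from the median Kl value r was 0.91. Egf correlated with Kl at r = 0.90 (exact permutation p = 0.013, adjusted 0.072) and with Pvalb at r = 0.93 (exact permutation p = 0.018, adjusted 0.072), and these 2 relations did not pass. Their rho was 0.94 and 0.83 (exact permutation p = 0.017 and 0.058, adjusted 0.1 and 0.18), and with the 2 farthest mice left out r was 0.72 and 0.59. The first and last 3 mice hold too few samples for a value of their own.
At ip 400 mg/kg mouse 107 was highest in Egf (10.09), Kl (9.92) and Pvalb (6.15). There 0 of 6 relations passed, with r of 0.81 for Egf and Kl, 0.71 for Egf and Pvalb and 0.75 for Kl and Pvalb (exact permutation p = 0.06, 0.087 and 0.061). Without the 2 farthest mice r was 0.84 for Egf and Kl, 0.12 for Egf and Pvalb and -0.63 for Kl and Pvalb, so the last pair of relations rests on those mice. Relations of Umod with the other members had r between 0.17 and 0.69 over both groups, and none passed.

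Between 200 and 400 mg/kg all 4 members fell by both routes. For iv 400 mg/kg against iv 200 mg/kg the log2 differences were -2.41 ± 0.35 for Egf, -1.69 ± 0.27 for Kl, -3.40 ± 0.46 for Pvalb and -0.31 ± 0.08 for Umod (limma adjusted p from 2.3e-07 to 0.0022, where 31.2% of genes passed). With only these groups fitted, the limma adjusted p ran from 0.0069 for Pvalb to 0.043 for Umod. In each gene 5 of the 6 iv 400 mg/kg mice lay below all iv 200 mg/kg mice. For ip 400 mg/kg against ip 200 mg/kg they were -4.49 for Egf, -2.97 for Kl, -6.03 for Pvalb and -0.37 for Umod (limma adjusted p from 3.3e-15 to 7.8e-05, where 60.6% of genes passed), with no overlap of the groups in any member. None of the 4 passed at iv 50 mg/kg against iv saline (0.539% of genes passed), at ip 50 mg/kg against ip saline (0.087%) or at iv 200 against iv 50 mg/kg (6.87%). At ip 200 against ip 50 mg/kg the count was also 0, as it was for all genes (limma, 0%).

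At 400 mg/kg the ip falls were deeper in the means of Egf and Pvalb, but the difference between routes did not pass the main test. The ip effect minus the iv effect was -1.23 ± 0.49 for Egf (limma adjusted p = 0.15), -0.56 ± 0.39 for Kl (0.44), -1.65 ± 0.65 for Pvalb (0.14) and -0.01 ± 0.11 for Umod (0.98), where 4.31% of genes passed. Egf and Pvalb passed without iv mouse 48 (-1.65, adjusted p = 0.01, and -2.10, adjusted p = 0.022), without ip mouse 107 (-1.52, adjusted p = 0.034, and -2.10, adjusted p = 0.019) or with array quality weights (-1.45, adjusted p = 0.008, and -1.78, adjusted p = 0.015).

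The saline groups themselves differed in Umod. It averaged 14.12 ± 0.14 with ip saline and 13.26 ± 0.07 with iv saline (SD, n = 6 each), a difference of 0.85 ± 0.08 (limma adjusted p = 6.7e-12), with all 6 ip mice above all iv mice. In that comparison 57.7% of genes passed, 95.5% of them higher with ip saline, and the median of all genes was 0.41 higher. Quantile normalization set that median to -0.04 and the share of higher calls to 46.6%, while Umod stayed 0.69 higher. The log2 difference of Kl was 0.54 ± 0.27 (limma adjusted p = 0.084) and depended on the processing. Kl passed with array quality weights (0.0055) and with only these groups fitted (0.00058), but its difference was 0.38 after centring each array on its median (adjusted p = 0.31) and 0.16 after quantile normalization (adjusted p = 0.72). Egf (0.13, adjusted p = 0.77) and Pvalb (0.17, adjusted p = 0.77) did not pass, and after quantile normalization their differences turned to -0.10 for Egf (adjusted p = 0.88) and -0.33 for Pvalb (adjusted p = 0.65). With only the saline groups fitted, Egf had a limma adjusted p of 0.077, and its unadjusted exact permutation p was 0.0108.

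Ordered by mean level over the 8 groups, Egf, Kl and Pvalb each had iv 200, iv 400 and ip 400 mg/kg as the lowest groups. In these 3 genes the ranges of every pair of neighbours in that order overlapped. Umod was ordered by route, with the 4 ip groups above the 4 iv groups, and its only gap without overlap lay between ip 400 mg/kg (13.83) and iv 200 mg/kg (13.29).

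Among other genes of the loop and distal tubule more fell than rose at 400 mg/kg. Of a list of 66 such genes, 37 were named and 31 passed the filter, the 4 members included. At iv 400 mg/kg against iv saline 17 of the other 27 fell, 2 rose and 8 did not pass, with a median log2 difference of -0.60, against 0.09 over all genes. Of all genes 19% passed there as lower and 30.7% as higher. At ip 400 mg/kg against ip saline 17 fell, 4 rose and 6 did not pass, with a median of -0.48, against 0.11. There 25.1% of all genes passed as lower and 36.3% as higher.
The carriers that define these segments were among those that fell. Slc12a1, the sodium-potassium-chloride cotransporter of the thick ascending limb, fell, with log2 differences of -1.19 at ip 400 mg/kg and -1.23 at iv 400 mg/kg. Slc12a3, the sodium-chloride cotransporter of the distal convoluted tubule, fell likewise (-1.67 ip, -1.39 iv). Kcnj1, the potassium channel ROMK, fell (-1.23 ip, -1.10 iv), and Bsnd, the chloride channel subunit barttin, fell (-1.47 ip, -1.52 iv). Calb1, the calcium buffer calbindin of the later distal tubule, fell (-2.20 ip, -1.91 iv), and Wnk4, a kinase that regulates Slc12a3, fell (-1.0 ip, -0.92 iv). The log2 differences of these 6 genes were smaller than those of Egf, Kl and Pvalb by both routes, and these gaps between genes were not tested. Irx3, a homeobox factor, rose by 0.87 (ip) and 0.82 (iv), and Oxsr1, a kinase acting on the cotransporters, rose by 0.46 (ip) and 0.33 (iv). Ptgs2, cyclooxygenase-2 of the macula densa region, rose by 2.29 at ip 400 mg/kg and differed by -0.16 at iv 400 mg/kg (limma adjusted p = 0.7). Its iv saline mean was high, so the routes start from unequal levels. Ptgs2 averaged 5.33 log2 intensity with ip 400 mg/kg and 3.04 with ip saline, and 4.47 with iv 400 mg/kg and 4.63 with iv saline, while iv 50 and iv 200 mg/kg averaged 3.25 and 3.44.

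**Figure D4:**
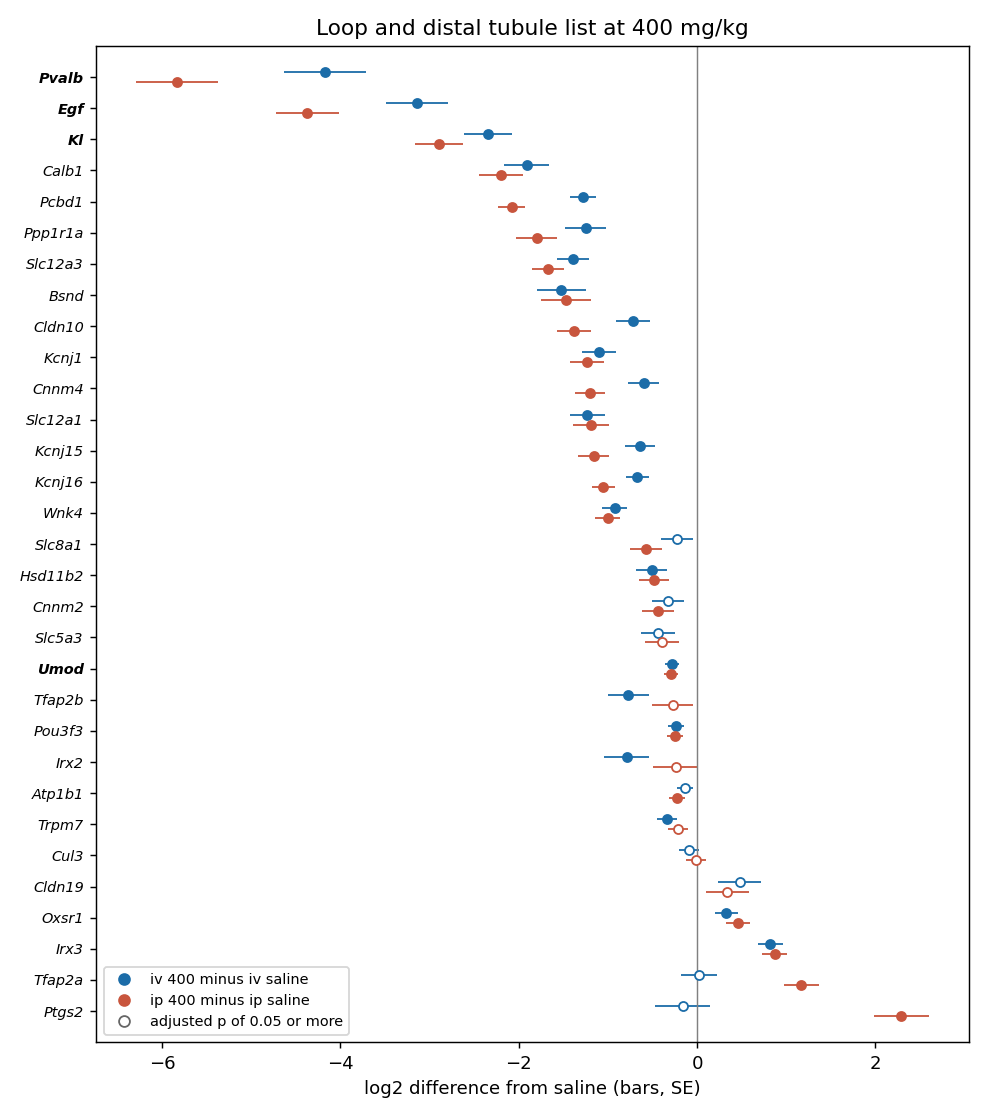
Log2 difference from saline of the same route, with SE, at iv 400 (blue) and ip 400 mg/kg (red) for the 31 tested loop and distal tubule genes; open symbols did not pass the adjusted threshold and the 4 members are in bold. Pvalb, Egf and Kl stand at the top with the largest falls, and Umod lies near 0.

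Of 10 other tested genes of the EGF receptor system, 4 rose and 1 fell at iv 400 mg/kg, where 30.7% of all genes passed as higher and 19% as lower. At ip 400 mg/kg 6 rose and 1 fell, where 36.3% of all genes passed as higher and 25.1% as lower. The share that rose at iv 400 mg/kg was thus near that of all genes. The median log2 difference of the 10 genes was 0.37 (iv) and 0.58 (ip), against 0.09 (iv) and 0.11 (ip) over all genes. Egfr, the receptor, rose by 0.74 at ip 400 mg/kg and by 0.70 at iv 400 mg/kg. Hbegf, another ligand of that receptor, rose by 2.27 (ip) and 0.86 (iv). Its routes started from unequal levels, with means of 4.65 with ip saline and 5.96 with iv saline. At 400 mg/kg the means were 6.92 (ip) and 6.82 (iv). Adam17, the protease that sheds such ligands, rose by 1.20 (ip) and 0.59 (iv). Rhbdf2, a partner of Adam17, rose by 1.63 (ip) and 0.93 (iv). Tgfa, a further ligand, rose by 1.22 at ip 400 mg/kg and differed by 0.50 at iv 400 mg/kg (limma adjusted p = 0.067). Lrig1, an inhibitor of the receptor, fell (-0.40 ip, -0.36 iv).

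Of 12 other tested genes around klotho, FGF23 and vitamin D, 5 fell and 2 rose at iv 400 mg/kg (19% lower and 30.7% higher over all genes), and 5 fell and 3 rose at ip 400 mg/kg (25.1% lower and 36.3% higher over all genes). Their median log2 difference was -0.11 (iv) and -0.05 (ip), against 0.09 (iv) and 0.11 (ip) over all genes. Fgfr3 and Fgfr4, receptors of FGF hormones, fell at ip 400 mg/kg (-1.25 for Fgfr3, -1.07 for Fgfr4) and at iv 400 mg/kg (-1.26 for Fgfr3, -0.94 for Fgfr4). Vdr, the vitamin D receptor, fell (-0.89 ip, -0.55 iv), and Pth1r, the parathyroid hormone receptor, fell (-0.57 ip, -0.39 iv). Slc34a1 fell (-2.85 ip, -2.0 iv). Cyp27b1, which activates vitamin D, rose by 2.91 at ip 400 mg/kg and differed by 1.06 at iv 400 mg/kg (limma adjusted p = 0.06). Cyp24a1, which degrades it, rose by 1.22 at iv 400 mg/kg and differed by 0.49 at ip 400 mg/kg (limma adjusted p = 0.38). Fgf23 and Klb failed the filter, with no value above 2.50 and 2.25 in any array.

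Among 5 other EF-hand calcium buffer genes 2 fell and 2 rose by each route at 400 mg/kg, doses at which 49.7% (iv) and 61.3% (ip) of all genes passed in either direction. Their median log2 difference was 0.09 (iv) and 0.20 (ip). Calb1 and Calml4 (-0.95 ip, -0.45 iv), a calmodulin-like gene, fell, while Rcn1, a reticulocalbin of the endoplasmic reticulum, rose by 2.25 (ip) and 1.69 (iv) and Sdf4 by 0.30 (ip) and 0.26 (iv). Of 3 other genes related to uromodulin, Hpn, the protease hepsin that releases uromodulin from the membrane, fell at ip 400 mg/kg (-0.56) and differed by -0.25 at iv 400 mg/kg (limma adjusted p = 0.15). The other two, Eng and Tgfbr3, did not pass by either route.

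Markers of several other cell types fell or rose at 400 mg/kg, and their part in the members' falls was not tested. All 7 named proximal tubule markers fell by both routes, and their summed intensity ranged from 3279 to 11577 with ip 400 mg/kg, against 38969 to 47648 with ip saline. With iv 400 mg/kg it ranged from 4270 to 20077, against 23602 to 39949 with iv saline. All 10 injury markers rose by both routes, where 30.7% (iv) and 36.3% (ip) of all genes passed as higher, with sums of 41035 to 57502 with ip 400 mg/kg against 4393 to 6020 with ip saline, and 29244 to 58614 with iv 400 mg/kg against 3064 to 5878 with iv saline. All 9 macrophage and myeloid markers rose by both routes, with sums of 12036 to 28754 with ip 400 mg/kg against 638 to 1228 with ip saline, and 5399 to 14647 with iv 400 mg/kg against 647 to 780 with iv saline. Among 8 collecting duct markers 6 fell by each route, where 19% (iv) and 25.1% (ip) of all genes passed as lower. Among 7 endothelial markers 2 fell, 0 rose and 5 did not pass by each route. Among 5 podocyte markers 1 rose and 0 fell at iv 400 mg/kg, and 2 rose and 1 fell at ip 400 mg/kg. Over all genes 19% (iv) and 25.1% (ip) passed as lower, and 30.7% (iv) and 36.3% (ip) as higher.

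The genes whose 8 group means most resembled those of each member were taken by Pearson correlation, as a description over means that share arrays. For Egf they were Slc34a1 (0.9994), Adhfe1 (0.9993), Pvalb (0.9989), Aspa (0.9989) and Spp2 (0.9987). For Pvalb they were Spp2 (0.999), Egf (0.9989), Slc22a22 (0.9979), Ndufs7 (0.9979) and Nat8f1 (0.9978). Egf and Pvalb thus stood in each other's nearest 5, although their falls differed in size. For Kl they were Bckdhb and Acss1 (0.9984 each), Syn3 and Dnajc12 (0.9975 each) and Fa2h (0.9971), and Kl itself correlated at 0.9716 with Egf and 0.9658 with Pvalb. For Umod they were Btbd6 (0.9982), Ubxn2a (0.9977), Trak2 (0.9971), Prpf8 (0.9963) and Ing3 (0.9958), and Umod correlated at 0.2907 with Egf, 0.4874 with Kl and 0.2643 with Pvalb.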

How the data were processed

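RNA from a piece of kidney of each mouse was labelled with biotin and hybridised to single-colour Affymetrix arrays, per the labels' protocols. The deposited table holds intensity values on a linear scale, made by the authors with GCRMA per the submitters' processing notes, with no version in those notes. The log2 scale was applied to the authors' values in this work. Names came from the platform annotation, shifted by 1 offset in each of 3 stretches of rows, and of several rows of a gene the highest mean was kept. Depth has no meaning for arrays, so the 6 arrays per group limit precision. All 48 arrays in 8 groups were fitted with limma 3.58.1 (eBayes with trend, 40 residual degrees of freedom), with Benjamini-Hochberg adjustment over 5748 genes and a threshold of 0.05. Tested on simulated data, the fit recovered nearly all large changes and missed many small ones, and false calls were a larger share of its calls than the threshold. The simulation gave each gene equal, independent spread in all groups and changed 200 of 5748 genes at iv 400 mg/kg. It therefore does not show how the fit performs with the unequal spread and many changed genes seen here. Single values were compared with exact permutation tests. Alternatives changed the filter, scaling, weights, arrays fitted, test, probe set, naming and adjustment, or left out each mouse. Ratios to Umod and a term for the first or last 3 mice of each group were added after seeing the data. Labels name no batch. The members, lists and naming offsets were chosen with earlier results of these data known. Named genes were the members, the tested genes of 5 pathway lists and the 5 genes most like each member.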

Additional observations from a re-analysis of the deposited data

How the results depend on the processing

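Of 560 single-gene differences of the 4 members refitted on all mice with the re-established names, 548 stayed on the same side of the threshold and 12 newly passed. Of 720 with 1 mouse left out, 716 stayed on the same side and 4 newly passed. None of these was lost. Some differences that passed in neither fit changed sign, and none that passed did. With a term for the first or last 3 mice of each group, chosen after seeing the data, the count of members that passed was as in the main fit in every comparison. Within the first 3 and the last 3 mice, the falls at iv 400 mg/kg were -2.62 and -3.65 for Egf, -1.87 and -2.80 for Kl, -3.01 and -5.33 for Pvalb and -0.30 and -0.26 for Umod. At ip 400 mg/kg they were -4.19 and -4.54 for Egf, -2.89 and -2.90 for Kl, -6.03 and -5.63 for Pvalb and -0.34 and -0.24 for Umod. No paired analysis was possible because no mouse number is shared between groups.

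With array quality weights, members passing numbered 3 at iv 200 mg/kg against iv saline and 3 at iv 200 against iv 50 mg/kg (0 in the main fit), 2 between ip and iv saline (1 in the main fit), and 1 and 2 for the route difference at 200 and at 400 mg/kg (0 in the main fit). The weights also raised the count over all genes. It was 1398 at iv 200 mg/kg against iv saline (423 in the main fit) and 714 for the route difference at 200 mg/kg (56). Fitting the compared groups alone gave 2 between the saline groups and 1 for the route difference at 200 mg/kg. Counts over all genes are not given here for these fits. The same holds for the weighted fits at iv 200 against iv 50 mg/kg, between saline groups and for the route difference at 400 mg/kg. Their member counts therefore have no share beside them. Unadjusted exact permutation tests passed 3, 3 and 1 members at iv 200 mg/kg against saline, at iv 200 against iv 50 mg/kg and at ip 200 mg/kg against saline, and 3 between saline groups. They were not run over all genes, so no share stands beside these counts. For the route difference at 400 mg/kg leaving out 1 mouse gave 0 to 2, in fits where 148 to 530 of all genes passed. Spearman's rho left 0 relations past the threshold in place of 1. With names as listed, 3 members were tested and 1 passed at iv 400 mg/kg, 1 at ip 400 mg/kg, 0 at iv 400 against iv 200 mg/kg, 2 at ip 400 against ip 200 mg/kg and 2 between saline groups. Signs then turned for Egf (0.56, 0.97, 0.36 and 0.89 in the first 4 of these comparisons), Kl (0.20, 0.29, 0.07 and 0.46) and Umod (0.16, 0.20 and, at ip 400 against ip 200 mg/kg, 0.24); these are rows of other genes by the re-established order.

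Counts over all genes varied more. They ran from 76 to 1398 at iv 200 mg/kg (423 in the main fit), 22 to 196 at iv 50 (31), 0 to 13 at ip 50 (5), 3 to 18 at ip 200 (5), 72 to 941 at iv 200 against iv 50 (395), 31 to 714 and 76 to 1331 for the route difference at 200 and 400 mg/kg (56 and 248). Adjusting over all 24930 kept rows, which tests more features, gave 10279 at iv 400 mg/kg (2859), 14250 at ip 400 (3526), 6028 at iv 400 against iv 200 (1796), 13770 at ip 400 against ip 200 (3481) and 14430 between saline groups (3316, and 1344 after quantile normalization). Leaving out 1 mouse gave 271 to 590 at iv 200 mg/kg against saline, lowest without mouse 25, 1 to 6 at ip 50 mg/kg, 3 to 7 at ip 200 mg/kg and 231 to 595 at iv 200 against iv 50 mg/kg. It gave 19 to 179 for the route difference at 200 mg/kg, lowest without mouse 27 and highest without mouse 28, and 148 to 530 at 400 mg/kg, lowest without mouse 104 and highest without mouse 107. The causes were not tested. Signals under the table's median, as in Pvalb at 400 mg/kg, limit what its falls can show.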

Other observations

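Hbegf and Ptgs2 passed the test as lower at iv 50 mg/kg, and in both genes the mean of iv saline stood above those of all other groups under 400 mg/kg. Hbegf averaged 4.37 ± 0.75 log2 intensity with iv 50 mg/kg and 5.96 ± 0.54 with iv saline (SD, n = 6 each, limma adjusted p = 0.0034), and between 4.45 and 5.41 in the other groups under 400 mg/kg. Ptgs2 averaged 3.25 ± 0.18 with iv 50 mg/kg, under the table's median, and 4.63 ± 0.35 with iv saline (SD, n = 6 each, limma adjusted p = 0.014). At iv 200 mg/kg it averaged 3.44 ± 0.16 (log2 difference from iv saline -1.19, limma adjusted p = 0.011), and in the ip groups under 400 mg/kg between 2.96 and 3.04. Rcn1 was higher at iv 200 mg/kg, at 6.64 ± 0.56, than with iv saline, at 5.67 ± 0.23 (SD, n = 6 each, limma adjusted p = 0.00021), and Fgfr3 was lower, at 6.78 ± 0.15 against 7.37 ± 0.25 (limma adjusted p = 0.028).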
